A study of Homo sapiens with 6 samples.

Results

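The genes described here are those of AP-1 and the early-response factors read out beside it, which are the FOS family (FOS, FOSB, FOSL1, FOSL2), the JUN family (JUN, JUNB, JUND), the EGR family (EGR1 to EGR4), ATF3 and IER3. They were chosen by name, and every probe that the platform annotation assigns to them was taken, detected or not. Of these 13 genes, 12 had a listed probe, with 15 probes in all of the 47322 on the array, which name 20046 genes. EGR2 had none and was not measured here. The cells were T47D, a line of luminal breast cancer that carries the oestrogen receptor, grown in RPMI medium with serum. They received either a miR-489 mimic (3 arrays) or a scrambled control siRNA (3 arrays), and RNA was taken at 72 h. There was no untransfected group, all arrays come from 1 cell line, and the labels neither name the arm of the mimic nor say that replicates were separate cultures, so p-values measure only the spread between these samples.

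AP-1 is a dimer of basic leucine zipper proteins, built from a JUN protein with a FOS, ATF or second JUN protein, and it binds the sequence TGACTCA. FOS, JUN, EGR1, ATF3 and IER3 are immediate early genes, which growth factors and stress switch on within minutes through MAP kinases and without new protein synthesis, and whose mRNAs are short-lived. In breast cancer cells AP-1 is known for its crosstalk with the oestrogen receptor and its role in growth and invasion.

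The mature microRNA is shown first, because it names the agent of the comparison. RefSeq's table lists 1 mature form of the MIR489 gene, on GRCh38.p14 at chr7:93483947-93483968 on the minus strand, with its seed (bases 2 to 8) in capitals.
hsa-miR-489-3p: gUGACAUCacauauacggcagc
The promoters of FOS and JUN, the members called below, and of EGR1, which carries the box bound by serum response factor, are shown from 250 bases before to 50 bases after the start of the gene (RefSeq, GRCh38.p14). Capitals mark every match, on either strand, to the AP-1 site TGACTCA, the cAMP response element TGACGTCA, its half-site TGACG (contained in the full element), the variant TGACATCA, the TATA box TATAAA or the CArG box.
FOS promoter, chr14:75278578-75278877, plus strand: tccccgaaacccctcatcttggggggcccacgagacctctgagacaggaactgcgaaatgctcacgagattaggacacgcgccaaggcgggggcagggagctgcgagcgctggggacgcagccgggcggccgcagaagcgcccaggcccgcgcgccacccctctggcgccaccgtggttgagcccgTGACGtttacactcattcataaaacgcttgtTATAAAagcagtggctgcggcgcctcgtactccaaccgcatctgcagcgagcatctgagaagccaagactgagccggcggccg
JUN promoter, chr1:58783998-58784297, minus strand: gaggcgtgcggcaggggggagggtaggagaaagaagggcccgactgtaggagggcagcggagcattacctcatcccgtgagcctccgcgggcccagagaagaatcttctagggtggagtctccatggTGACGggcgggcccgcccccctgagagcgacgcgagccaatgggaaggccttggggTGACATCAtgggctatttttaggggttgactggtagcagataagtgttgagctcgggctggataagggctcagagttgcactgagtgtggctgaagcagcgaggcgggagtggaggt
EGR1 promoter, chr5:138465229-138465528, plus strand: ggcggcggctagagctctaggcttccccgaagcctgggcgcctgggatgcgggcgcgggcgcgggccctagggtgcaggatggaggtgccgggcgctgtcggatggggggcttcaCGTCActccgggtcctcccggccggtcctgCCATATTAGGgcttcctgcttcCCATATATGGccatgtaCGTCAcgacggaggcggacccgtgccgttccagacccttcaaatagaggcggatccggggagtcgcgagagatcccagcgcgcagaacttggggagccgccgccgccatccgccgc
The FOS window holds the half-site 64 bases before the start and the TATA box 33 bases before it. The JUN window holds TGACATCA 67 bases before the start and the half-site 123 bases before it. The EGR1 window holds a pair of CArG boxes, 105 and 83 bases before the start, and a pair of half-sites. Of 35116 promoters of the same length, 24.6% hold the half-site, 11.5% the TATA box, 2.61% TGACATCA and 1.29% a CArG box. TGACTCA itself was in 4.95% of all promoters. Of the 13 windows searched, which cover 10 of the genes and not EGR3, FOSL1 or IER3, it was in that of FOSL2 alone. The full element TGACGTCA, in 1.85% of all promoters, was found in JUND alone. Of the same 13 windows, 9 hold the half-site and 4 the TATA box. TGACATCA is in 2 of them (JUN and ATF3) and a CArG box in 2 (EGR1 and EGR2). TGACATCA has the letters of bases 2 to 9 of miR-489-3p with T for U, which is a match of letters in a promoter and not a target site. A match is a description of the window, and a site outside it would not be seen.

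Intensities had their background removed and were quantile-normalized, and the levels below are log2 values of the result. A probe was kept for testing when its detection p, the deposited p that its signal is above background, was under 0.01 on at least 3 of the 6 arrays. A probe is called at an adjusted p under 0.05 in limma, and rose and fell are used only of calls. Between 16452 and 17346 probes were detected per array, and over kept probes r was 0.982 to 0.993 between arrays of a group and 0.945 to 0.958 between groups. All 10 markers of the luminal line were detected on every array; 2 rose, KRT8 among them, and 3 fell, among them ESR1, the oestrogen receptor gene (-1.16 ± 0.12). KRT5 and KRT14 of basal cells, PTPRC of leukocytes and the 4 endothelial markers were detected on no array, while VIM, COL1A1, CD14 and CD68 were. Of the leukocyte list of 6, CD14 (-1.34 ± 0.18) and CD68 (-0.59 ± 0.12) fell, and the summed normalized intensity of that list was 776 to 916 with scramble and 527 to 549 with the mimic; its part in the results below was not tested. The transfected mimic itself is not measured by these probes.

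FOS rose and JUN fell with the miR-489 mimic, and the other 6 genes that could be tested were not called. Of the 15 probes, 8 were kept, 1 for each of FOS, FOSL2, JUN, JUNB, JUND, EGR1, ATF3 and IER3. The FOS probe passed that filter through the mimic arrays alone, so it had to differ, and the count of calls is read with that in mind. Of the 8 genes, 2 were called (25%), against a background of 35.7% of 10503 genes (18.4% higher and 17.3% lower) and 33.9% of 17104 probes. The arrays of the groups did not overlap in 4 of the 8, FOS, JUN, ATF3 and IER3, against 51.4% of all genes. Both shares are no higher than the background. In these bulk samples, fewer cells that express a gene and less RNA per cell cannot be told apart.

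**Figure D1:**
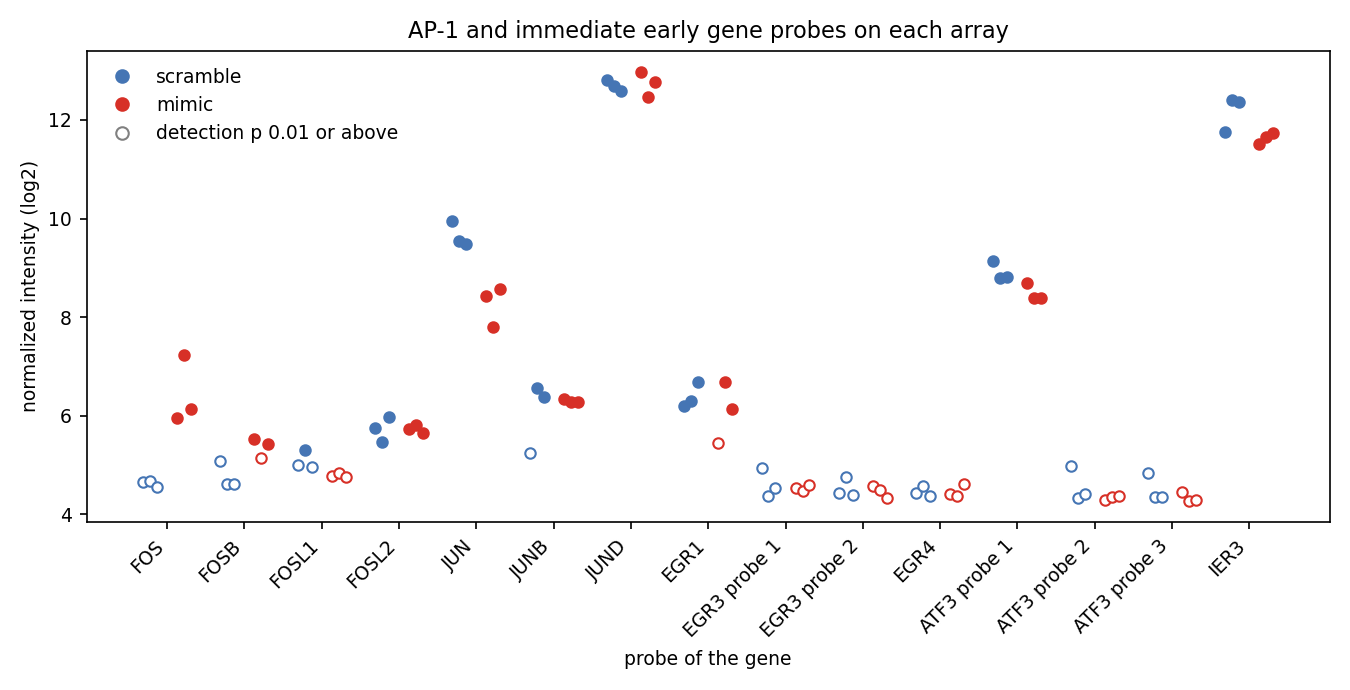
Normalized intensity (log2) of each of the 15 probes on the 3 scramble (blue) and 3 mimic (red) arrays, with open circles where the detection p was 0.01 or above. FOS changes from open scramble circles to filled mimic circles, JUN lies lower on each mimic array, and the EGR3, EGR4 and 2 of the ATF3 probes are open throughout.

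FOS encodes the founding partner of JUN in AP-1, and its probe went from undetected to detected. The deposited intensities were 121, 119 and 116 on scramble arrays 1 to 3, with detection p of 0.219, 0.188 and 0.340. They were 179, 251 and 168 on mimic arrays 1 to 3, with detection p of 0.0026 on array 1 and listed at 0 on the other two. Every mimic array lay above every scramble array, and mimic array 2 was the highest. After normalization the levels were 4.64 ± 0.06 with scramble and 6.44 ± 0.69 with the mimic (SD, n = 3 arrays each). Since no scramble array detected FOS, its scramble level is only an upper limit, and the difference is given as at least 2.17-fold. With no filter on detection, the fit free of that selection, limma's adjusted p was 0.0107, and it was 0.0035 in the filtered fit. That bound sets the mimic mean against the lowest signal detected on each scramble array, and it is 1.64-fold without mimic array 2. The fitted log2 fold change was 1.81 ± 0.30 (SE), and it was 1.40 ± 0.14 without mimic array 2.

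The size of the FOS difference moved with the processing. The fitted log2 fold change was 1.06 with a larger offset in the background step, 0.65 with no background correction and 0.39 ± 0.11 in the authors' processed values (adjusted p = 0.0294). In that last table FOS stood at 198, 199 and 196 with scramble and at 233, 309 and 240 with the mimic, in a table whose transform and centring are unknown. All 3 values lie below the bound, 1.12 on the log2 scale, which therefore belongs to the processing used here. FOS was called in each of the 18 alternative analyses that tested it, but nearly all of these reuse a detection filter that the mimic arrays alone carried it through, so their number is no measure of stability. It was not tested where detection on all 6 arrays was required, which by construction leaves FOS out.

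**Figure D2:**
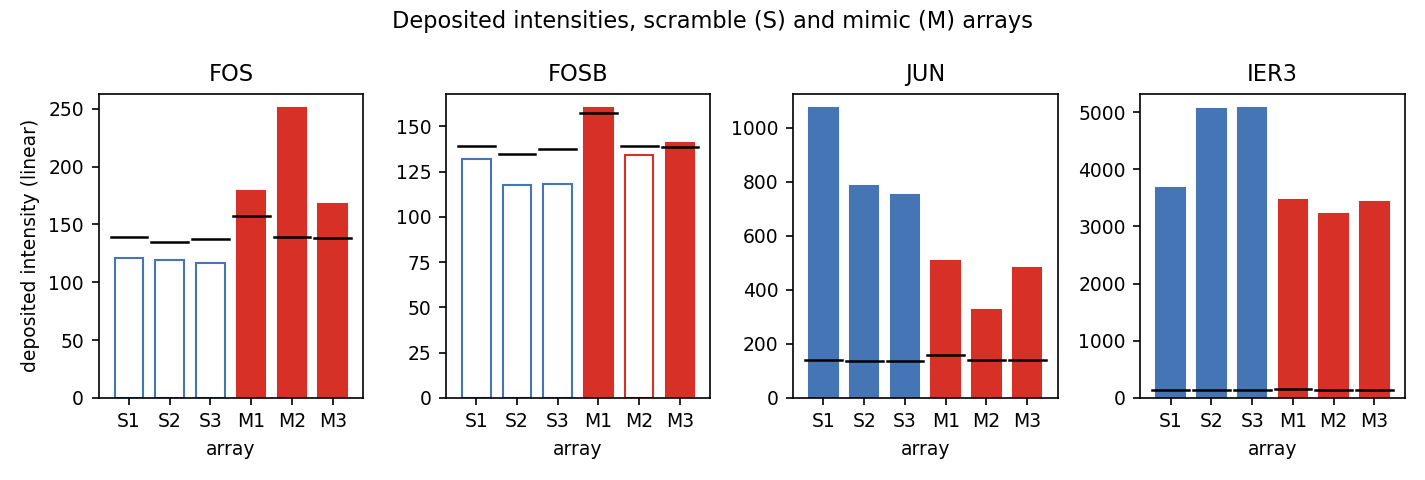
Deposited intensity on a linear scale for FOS, FOSB, JUN and IER3 on scramble arrays S1 to S3 and mimic arrays M1 to M3. Open bars have a detection p of 0.01 or above, and the black line on each bar is the lowest intensity detected on that array, from 135 to 157. FOS crosses that line on the mimic arrays, FOSB lies close to it throughout, and JUN and IER3 lie well above it.

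FOSB, the closest relative of FOS, sat at the edge of detection. Its intensities were 132, 117 and 118 with scramble, where it was detected on no array, and 160, 134 and 141 with the mimic, where it was detected on arrays 1 and 3. The mimic arrays were all higher, but its probe was not kept and so was not tested. With a looser filter (detection p under 0.05 on 3 arrays) its log2 fold change was 0.60 ± 0.18 (limma adjusted p = 0.0388). FOSB passed that filter only with its mimic arrays, where it was higher, so this p is not free of selection. With no filter the limma adjusted p was 0.0697, above the threshold.

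FOSL1 and FOSL2 encode the FRA proteins, AP-1 partners without the transactivating end of FOS. The FOSL1 probe had 130, 135 and 128 with scramble and 136, 126 and 124 with the mimic, and it was detected on scramble array 2 alone. It was not tested, and with no filter it gave -0.30 ± 0.12 (adjusted p = 0.207). FOSL2 was detected on all 6 arrays, at low intensity, from 140 to 159 with scramble and from 148 to 168 with the mimic. Its groups overlapped, and the log2 fold change was -0.0032 ± 0.16 (95% interval -0.36 to 0.36, adjusted p = 0.990).

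JUN encodes the founding member of the JUN family, which FOS proteins need as partners to bind DNA, and its probe was well above background on all 6 arrays. Its intensities were 1073, 786 and 753 on scramble arrays 1 to 3 and 508, 325 and 480 on mimic arrays 1 to 3. The groups did not overlap, scramble array 1 was the highest and mimic array 2 the lowest. The normalized levels were 9.66 ± 0.25 with scramble and 8.27 ± 0.41 with the mimic (SD, n = 3). JUN fell 2.63-fold, a difference of -1.39 ± 0.23 on the log2 scale (SE, limma adjusted p = 0.0030). The call was kept in all 19 alternatives, with values from -1.54 to -0.99.

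JUNB and JUND, JUN relatives that form weaker or growth-restraining AP-1 dimers, were not called. JUNB had 136, 187 and 179 with scramble and 201, 178 and 174 with the mimic. Scramble array 1 alone missed detection, with a detection p of 0.0156, and the remaining arrays lay close together. Its log2 fold change was 0.23 ± 0.31 (95% interval -0.48 to 0.95, adjusted p = 0.602), and without scramble array 1 it was -0.18 ± 0.14. JUND had 7657, 6154 and 5958 with scramble and 9107, 5675 and 6762 with the mimic, with a normalized range of 0.494 on the log2 scale over all 6 arrays. Its log2 fold change was 0.04 ± 0.16 (95% interval -0.32 to 0.41, adjusted p = 0.859), so a change as large as that of JUN lies outside its interval.

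**Figure D3:**
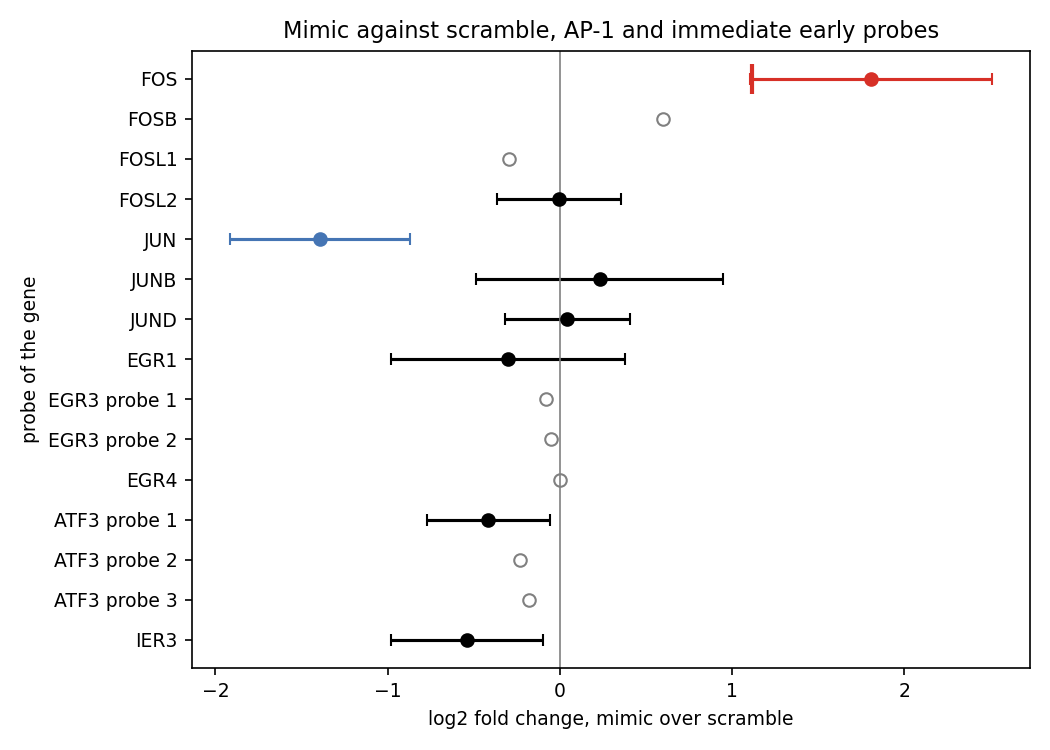
Log2 fold change, mimic over scramble, of each probe. Filled points were tested, with bars for the 95% interval of the limma fit (not adjusted for multiple tests), red for FOS, which was called higher, and blue for JUN, which was called lower. The vertical tick marks the lower bound of the FOS rise, and open circles are probes that were not kept, shown from the fit over all probes. FOS and JUN lie apart from the rest, which all lie within 0.6 of zero.

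The EGR genes encode zinc-finger factors induced by the same kinases. EGR1 had 169, 172 and 197 with scramble and 157, 202 and 168 with the mimic. It was detected on all arrays but mimic array 1, with a detection p of 0.0104 there, and the groups overlapped. Its log2 fold change was -0.30 ± 0.29 (95% interval -0.98 to 0.38, adjusted p = 0.463), and without mimic array 1 it was 0.02. Neither EGR3 probe and not the EGR4 probe was detected on any array, with intensities from 106 to 129 for EGR3 and from 107 to 120 for EGR4. At this signal no level or change can be given for either gene.

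ATF3, a stress-induced factor that can repress AP-1 sites, had 3 probes, of which 1 was detected, on all 6 arrays. That probe had 644, 505 and 519 with scramble and 592, 432 and 437 with the mimic. After normalization every mimic array lay below every scramble array, by a narrow margin, while in the deposited intensities the groups overlapped. Its log2 fold change was -0.42 ± 0.16, which missed the threshold (limma adjusted p = 0.0720). It passed in 3 of 19 alternatives, with no background correction (0.0439), cyclic loess (0.0473) or the replicate number as a block (0.0356). Another pair of ATF3 probes was detected on 0 arrays, and give no level.

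IER3, an early-response gene linked to cell survival and ERK signalling, was well above background. It had 3679, 5054 and 5075 with scramble and 3468, 3213 and 3420 with the mimic. Each mimic array was lower than each scramble array, and scramble array 1 lay close to the mimic arrays. The log2 fold change was -0.54 ± 0.19 (95% interval -0.98 to -0.10), and it missed the threshold after adjustment (limma adjusted p = 0.0630). Without scramble array 1 it was -0.75 ± 0.14 (adjusted p = 0.0088), and it passed in 9 of 19 alternatives in all. Those include the authors' processed values (-0.53 ± 0.17, adjusted p = 0.0461).

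**Figure D4:**
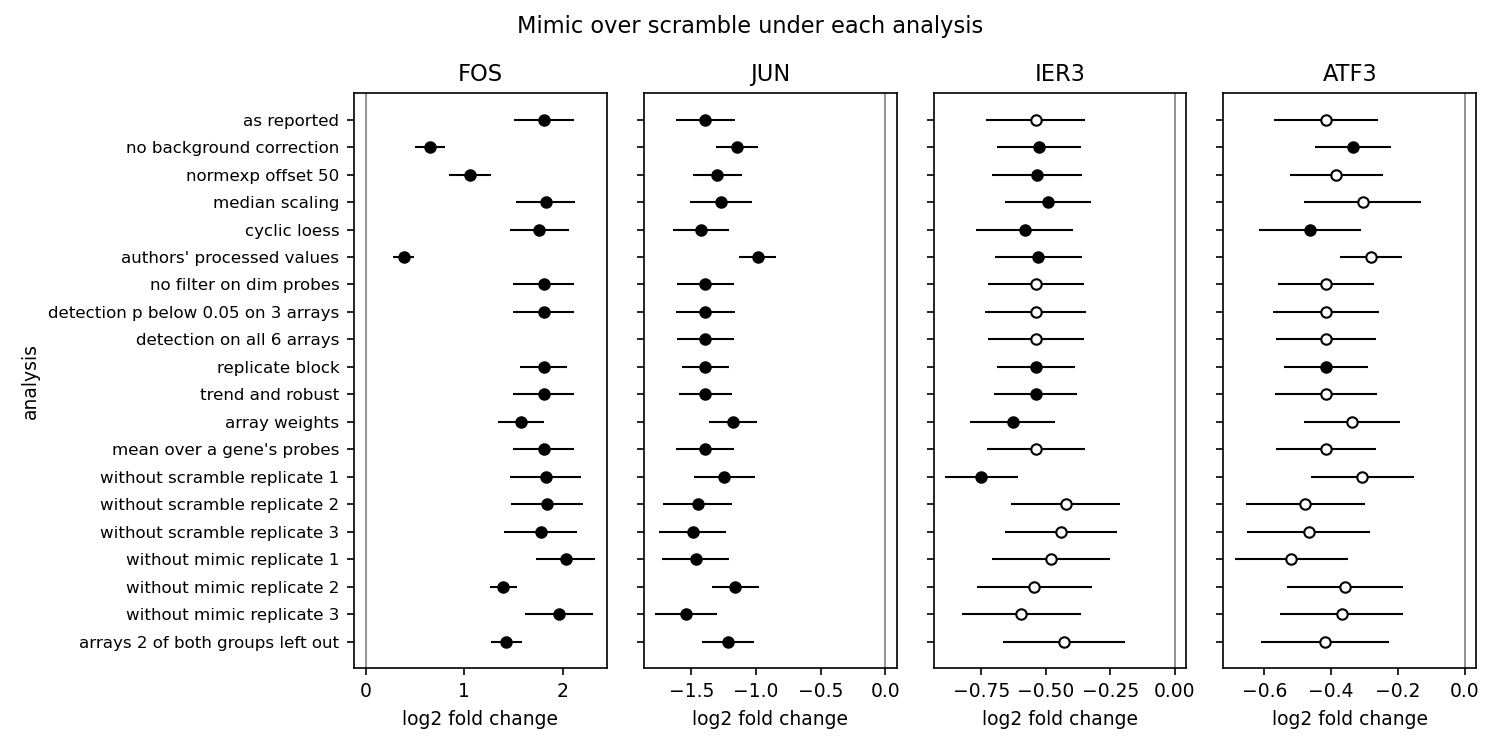
Log2 fold change, mimic over scramble, of FOS, JUN, IER3 and ATF3 under each analysis, with bars for the SE and filled points where the adjusted p was under 0.05. Each panel has its own scale. FOS (selected through its mimic arrays) and JUN have filled points wherever they were tested, while IER3 is filled in 9 and ATF3 in 3 of 19 alternatives.

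Genes whose pattern over the 6 arrays was most like that of FOS or JUN were found by the root mean square difference of log2 values, after each gene's own mean was removed. For FOS these were CRYAB, a small heat shock protein gene (difference 0.20), the antisense RNA gene ATP2B1-AS1 (0.21) and the membrane protease gene MMP16 (0.21). CRYAB changed by 2.10 ± 0.23 on the log2 scale (limma adjusted p = 0.00064). ATP2B1-AS1 and MMP16 were, like FOS, detected on 0 of 3 scramble arrays and 3 of 3 mimic arrays. For JUN they were VARS1, a tRNA synthetase gene (0.08), MST1R, a receptor tyrosine kinase gene (0.09), and MYO19, a mitochondrial myosin gene (0.11). The JUN-like genes fell, VARS1 by 1.47, MST1R by 1.37 and MYO19 by 1.43 on the log2 scale. This measure takes in the difference between the groups, so called genes of a like fold score as alike.

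Among 23 further basic leucine zipper genes that pair with AP-1 proteins or bind related sites, 15 were measured, of which 4 rose, 1 fell and 10 were not called (33.3%, against 35.7% of all genes; median log2 fold change -0.18 against 0.03). BATF, a FOS-like partner of JUN proteins best known in lymphocytes, changed by 1.32 ± 0.20 (limma adjusted p = 0.0022). It was detected on 1 scramble array and all 3 mimic arrays, and passed the filter only with its mimic arrays. With no filter the limma adjusted p of BATF was 0.0058. Its levels were 4.80, 4.73 and 5.38 with scramble and 6.16, 6.51 and 6.21 with the mimic, with no overlap. In the authors' processed values BATF was at 0.26, MAFG at 0.21 (not called, adjusted p = 0.0613) and MAFF at -0.28. CEBPG, a partner in heterodimers, changed by 0.57 ± 0.13, the small MAF gene MAFG by 0.58 ± 0.18 and its relative MAFF by -0.60 ± 0.17. MAFG and MAFF each lost their call without scramble array 1 or 3 or mimic array 1 or 3. The count that rose was 2 without scramble array 3 or mimic array 1 or 3, and the count that fell was 0 without those arrays and 2 without mimic array 2. Other processing gave up to 3 that fell, with cyclic loess, no background correction, the larger offset, the trended fit or the authors' values, and with no filter 2 rose and 0 fell.

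Of 26 kinases and promoter factors upstream of FOS and JUN, 18 were measured, of which 3 rose, 4 fell and 11 were not called (38.9%, near the 35.7% of all genes, median -0.09). A probe of MAPK8, the gene of the JUN kinase JNK1, changed by -1.60 ± 0.26 (limma adjusted p = 0.0029), at 7.14, 7.66 and 7.36 with scramble and 5.70, 6.34 and 5.32 with the mimic. That probe is annotated to a cDNA and not to a RefSeq transcript, and the RefSeq probe of MAPK8 was detected on 0 arrays. The nuclear kinases MSK1 (RPS6KA5) and MSK2 (RPS6KA4), which act on chromatin and CREB at early gene promoters, changed by -1.08 ± 0.20 and -1.12 ± 0.30. In the authors' processed values MAPK8 was at -0.50 and RPS6KA5 at -0.46. Leaving out scramble array 1, scramble array 3 or mimic array 3 ended the RPS6KA4 call (adjusted p from 0.0559 to 0.0675), and the count that fell was 2 without scramble array 3 or mimic array 3.

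Serum response factor and its partners drive FOS and EGR1 through CArG boxes. Of these, SRF changed by 0.82 ± 0.12 (limma adjusted p = 0.0019) and its coactivator gene MRTFA by 0.78 ± 0.15 (adjusted p = 0.0068), and both kept their call in all 19 alternatives. They are named after their values were seen. The related coactivator gene MRTFB (-0.27 ± 0.12, adjusted p = 0.130) and the ETS partner gene ELK1 (0.05 ± 0.12, adjusted p = 0.794) were not called. ELK4, an ETS partner of SRF, changed by 1.09 ± 0.18, with detection on 1 scramble array and all mimic arrays. That probe passed the filter only with its mimic arrays, and with no filter its limma adjusted p was 0.0081. The second kept probe of ELK4 differed, at -0.17 ± 0.28 (adjusted p = 0.672). With the mean of both probes the ELK4 call was lost (adjusted p = 0.116). In the authors' processed values ELK4 was at 0.24 and MRTFA at 0.29. The ERK gene MAPK3 (-0.07) and the MEK genes MAP2K1 (-0.0047) and MAP2K2 (0.17) did not pass, and are likewise named after their values were seen.

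**Figure D5:**
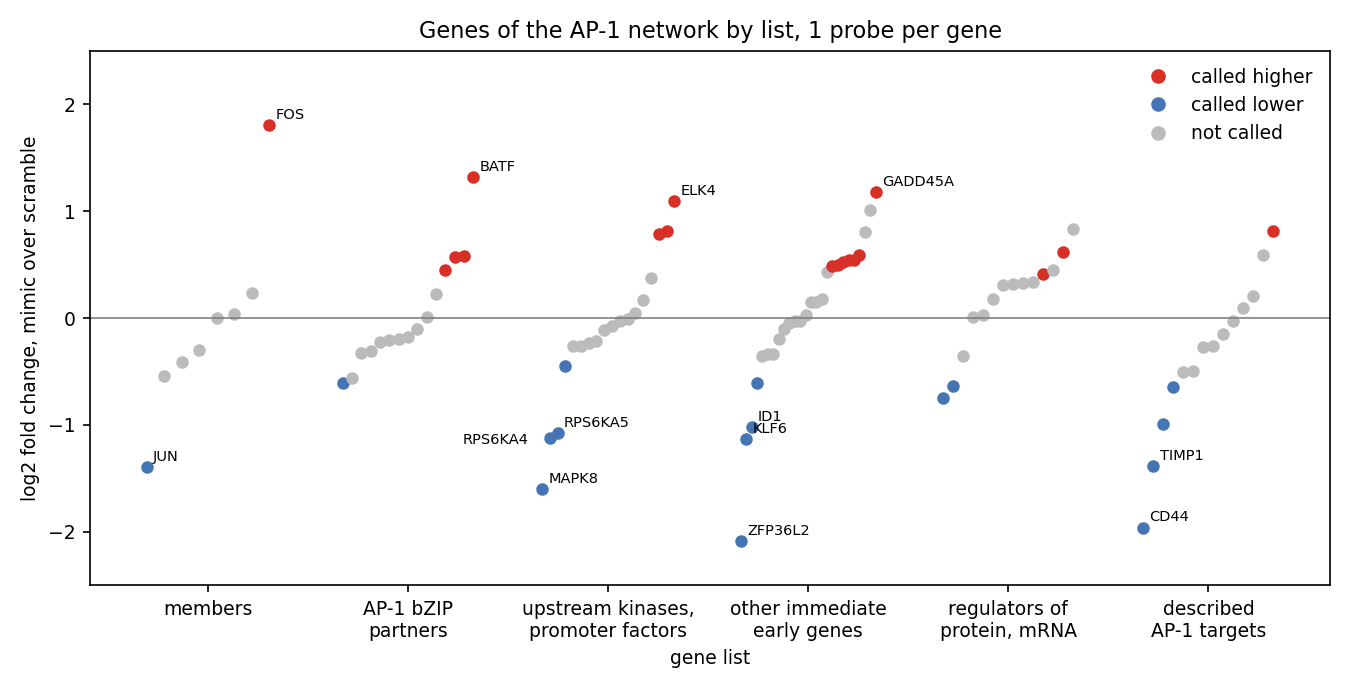
Log2 fold change, mimic over scramble, of each measured gene in the AP-1 set and in 5 lists of related genes, 1 probe per gene, sorted within each list. Red points were called higher, blue lower and grey not called, and names mark called genes beyond 1 on the log2 scale. Every list holds calls in both directions, and MAFF and ZFP36 are each shown in more than 1 list.

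Of 32 other immediate early genes, 26 were measured, of which 7 rose, 4 fell and 15 were not called (42.3%, against 35.7% of all genes, median 0.09). MAFF, already counted among the basic leucine zipper genes, is 1 of these 4. ZFP36, which was not called, is also in the list of regulators below. ZFP36L2, an RNA-binding protein that triggers decay of AU-rich mRNAs, changed by -2.09 ± 0.29 (limma adjusted p = 0.0015), at 8.13, 7.78 and 8.92 with scramble and 6.29, 5.86 and 6.41 with the mimic. The zinc-finger gene KLF6 changed by -1.14 ± 0.18 and ID1, an inhibitor of helix-loop-helix factors, by -1.02 ± 0.24 (adjusted p = 0.0519 without scramble array 3). GADD45A, a growth arrest and stress gene, changed by 1.18 ± 0.23. In the authors' processed values ZFP36L2 was at -0.90 and GADD45A at 0.49. DUSP1, a MAP kinase phosphatase gene (-0.36 ± 0.22), and CCN1, a matrix protein gene (0.43 ± 0.16, adjusted p = 0.0681), did not pass. These are induced with FOS in many cells. MYC (0.49 ± 0.12, limma adjusted p = 0.0183) and IER5 (0.49 ± 0.13, adjusted p = 0.0222) were among the 7 that rose. MYC lost its call in 4 of 19 alternatives. DUSP1, CCN1, MYC and IER5 were named after their values were seen. The count that rose was 4 without scramble array 2 or mimic array 1 or 2 and 3 without mimic array 3, and the count that fell was 2 without scramble array 3.

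Regulators of the proteins and mRNAs of these genes had 14 measured members of 16, of which 2 rose, 2 fell and 10 were not called (28.6%, against 35.7% of all genes, median 0.31). The corepressors of EGR factors moved in opposite directions, NAB1 by -0.75 ± 0.16 (limma adjusted p = 0.0104) and NAB2 by 0.61 ± 0.14 (adjusted p = 0.0123). COP1, a ubiquitin ligase subunit that marks JUN for destruction, changed by 0.42 ± 0.12 and kept its call in 13 of 19 alternatives. Among the fits with 1 array left out, that call held only without scramble array 2. Its second kept probe was not called (0.32 ± 0.12, limma adjusted p = 0.0775). MEN1, whose product menin represses JUND, changed by -0.64 ± 0.15, which no longer passed (adjusted p from 0.0518 to 0.0554) when scramble array 2, scramble array 3, mimic array 1 or mimic array 3 was left out. Those same omissions left 1 gene that fell in this list, and all but that of scramble array 2 left 1 that rose. The count that rose was 4 with median scaling, the replicate block or the authors' values, 5 with no background correction and 6 with array weights. In the authors' processed values NAB1 was at -0.28, NAB2 at 0.33 and MEN1 at -0.39.

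Of 25 genes described as AP-1 targets in other cells, 14 were measured, of which 1 rose, 4 fell and 9 were not called (35.7%, the same share as over all genes, median -0.27). CD44, a hyaluronan receptor, changed by -1.96 ± 0.21 (limma adjusted p = 0.00057), at 9.03, 9.14 and 9.51 with scramble and 7.47, 6.86 and 7.47 with the mimic. TIMP1, an inhibitor of matrix proteases, changed by -1.39 ± 0.19. MMP9, a matrix protease gene, was detected on 0 mimic arrays and passed the filter through the scramble arrays alone, so it had to differ. It was at least 1.40-fold lower with the mimic (limma adjusted p = 0.0237 with no filter and 0.0093 in the filtered fit). That bound, 0.48 on the log2 scale, exceeds its difference of -0.32 with no background correction and of -0.18 in the authors' processed values, where it was not called (adjusted p = 0.0656). HMOX1, haem oxygenase, changed by 0.82 ± 0.15, and the count that rose was 2 without scramble array 1, with the replicate block or with array weights. In the authors' processed values CD44 was at -1.17 and HMOX1 at 0.28. CCND1, the cyclin D1 gene, was not called (-0.03), nor was VEGFA, a vascular growth factor gene (0.21), both named after their values were seen.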

How the data were processed

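The measurements are from 6 Illumina BeadChips hybridised with biotin-labelled cRNA of T47D cells, 3 per group, with groups taken from the sample titles. The deposited table that was not normalized holds, per the file headers, a linear intensity and a detection p-value for each probe and array. Their software and settings: not given in the sources used here. A second table holds the authors' processed intensity values, for which the submitters' processing notes name lumi 3.2.2. All its columns share a median of 200.8 and are linear, the transform and any centring stay unknown, and it served as an alternative.

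Background was removed with nec (normexp from detection p-values, offset 16), arrays were quantile-normalized and log2 was taken (limma 3.58.1, R 4.3.3). Of 47322 probes, 17104 (36.1%) had a detection p below 0.01 on at least 3 arrays and were fitted with lmFit and eBayes (two-sided), with Benjamini-Hochberg adjustment over all of them. The platform annotation gave 1 symbol to 30113 probes, 30074 of which were updated by Entrez identifier. Of several kept probes the one with the highest mean stood for the gene. The sources name no genome build for the probes. Arrays limit the precision by their number, and folds near background are compressed or unstable. On simulated data the fit recovered 1.49% of 67 changes of 1.5-fold, 64.2% of 67 of 2-fold and 98.5% of 66 of 4-fold. These were planted in the brighter kept probes, and 6 of the 115 calls were false. A gene not called at a small fold is therefore not shown to be unchanged. Far fewer probes changed there than the 5798 called here, so these shares may not carry over.

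A probe undetected on every array of 1 group gives a bound, from the other group's mean against the higher of its own value and the lowest detected value on each array. Such a bound takes no account of the spread between arrays. The members and lists were chosen with earlier results of these data known. EGR2 to EGR4 were added because the choice of EGR genes covers them. The text names every member probe, from each list up to 4 called genes with the largest fold, and 3 genes most like each called member. Alternatives changed the background step, the scaling, the filter, the values, the block, the weights, the moderation, the gene summary and the arrays. No identical arrays were found.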

Additional observations from a re-analysis of the deposited data

How the results depend on the processing

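JUN kept its direction and call in all 19 alternatives (-1.54 to -0.99). FOS was called in the 18 that tested it (0.39 to 2.03), most of which reuse a filter it passed through the mimic arrays alone; with no filter its adjusted p was 0.0107. The number of called genes of the set, 2, was 4 with no background correction, cyclic loess or the replicate block (FOS, JUN, ATF3 and IER3). It was 3 with the looser filter (FOS, JUN and FOSB). It was also 3 (FOS, JUN and IER3) with the larger offset, median scaling, the authors' values, the trended fit or array weights. With no filter, or with the mean over a gene's probes, it was 2. It was 1 with detection on all 6 arrays and 2 to 3 when 1 array was left out. Counts of called probes of the set were the same wherever probes were fitted singly. The cause was not tested, except that the strict filter drops FOS by construction. Signs turned for genes that were not called. FOSL2 was at 0.044 with median scaling and between -0.13 and 0.12 when 1 array was left out, EGR1 between -0.60 and 0.020, JUNB between -0.18 and 0.48 and JUND between -0.073 and 0.17. Over all genes 3752 were called, 2542 to 3589 without 1 array and 2840 without array 2 of both groups, a choice made after seeing the data that left 2 genes of the set called. With median scaling the middle kept probe went from 0.02 to 0.10 on the log2 scale and the calls from 1933 higher and 1819 lower to 2383 and 1431. Same-numbered arrays deviated together for numbers 1 (r = 0.356) and 2 (0.450) but not 3 (-0.107), and scramble array 3 did not correlate best with its own number. The labels do not say whether the numbers pair the samples. These correlations cannot settle it, because deviations from a mean of 3 arrays depend on each other. With the replicate block 4260 genes were called. FOSB, FOSL1, FOSL2, EGR1, EGR3, EGR4 and JUNB lie at or near background, which limits what can be said of them. The same limit holds for FOS, undetected at 116 to 121 on the scramble arrays. On mimic arrays 1 and 3 FOS was at 179 and 168, within the 136 to 201 of JUNB.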
